A study of Homo sapiens with 10 samples.

Results

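Peaks at the 3 retinoic acid receptor genes RARA, RARB and RARG and at NRIP1 were taken from ChIP-seq of the coactivator MAML3 and the receptor RARα in the established human neuroblastoma line SK-N-SH. The members were all listed peaks that touched 4 fixed windows of the hg19 build. These windows were 38.41 to 38.56 Mb of chromosome 17 for RARA, 25.16 to 25.70 Mb of chromosome 3 for RARB, 53.55 to 53.68 Mb of chromosome 12 for RARG and 16.28 to 16.60 Mb of chromosome 21 for NRIP1. They held 33 of the 26482 listed peaks. The RARB window had 18, the RARA window had 15, and the RARG and NRIP1 windows had 0.

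Each antibody was used after 1 µM retinoic acid (RA) and after vehicle (UT), in 2 libraries per group, and all cells had spent the preceding 24 hours in charcoal-stripped serum, which is low in retinoids. The labels do not say whether the 2 libraries of a group came from separate cultures. The MAML3 lists held 7532 and 6230 peaks after RA and 2222 and 6759 in untreated cells, and the RARα lists held 1103 and 1064 after RA and 1321 and 251 in untreated cells. The tags in the list names leave it possible that the 2 untreated MAML3 lists are 1 library on 2 lanes, and the list of 251 peaks is tagged as merged. Depth is unknown, since read numbers are not given in the sources used, and the length of a list does not measure it. A peak that is not listed is therefore not shown to be absent, and the counts below are described without a test. The smallest two-sided p of an exact permutation of 2 libraries against 2 would be 0.333.

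Retinoic acid receptors are nuclear receptors that bind DNA as heterodimers with retinoid X receptors, at paired hexamers known as retinoic acid response elements. Without ligand they recruit corepressors, and with ligand they exchange these for coactivators. RARα and RARγ are encoded by RARA and RARG, and RARβ by RARB, whose promoter with a response element is a textbook retinoic acid target. NRIP1 encodes RIP140, a corepressor that binds ligand-bound nuclear receptors and whose own gene is induced by retinoic acid in several cell types. MAML3 belongs to the mastermind-like family, known as coactivators of Notch signalling.

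The promoter sequences of RARB and RARA are shown because the peaks described next lie in these 2 windows and because of how their hexamers are arranged. RefSeq gives 11 promoter windows for the 4 genes on GRCh38.p14, with 3 for RARA, 4 for RARB, 1 for RARG and 3 for NRIP1, and the 250 bases before each start were searched. The search took the hexamer AGGTCA as well as AGTTCA, and it took GGGTCA as well as GGTTCA, on both strands. Capitals mark every match.
RARB, chr3:25428013-25428262, plus strand: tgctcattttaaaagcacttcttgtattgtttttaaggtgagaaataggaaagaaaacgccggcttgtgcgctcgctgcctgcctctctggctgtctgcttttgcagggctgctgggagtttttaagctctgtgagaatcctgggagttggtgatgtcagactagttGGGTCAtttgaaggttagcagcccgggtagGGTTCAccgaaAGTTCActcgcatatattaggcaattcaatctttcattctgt
RARA, chr17:40308930-40309179, plus strand: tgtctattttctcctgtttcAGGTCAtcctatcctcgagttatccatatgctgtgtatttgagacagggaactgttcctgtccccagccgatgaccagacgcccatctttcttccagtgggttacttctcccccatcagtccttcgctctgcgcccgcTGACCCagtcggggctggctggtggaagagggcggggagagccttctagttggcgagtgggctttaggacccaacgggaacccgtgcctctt

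The RARB sequence holds 2 hexamers in direct repeat with 5 bases between them, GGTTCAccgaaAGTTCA, from 53 to 37 bases before the gene start. This arrangement is the classical response element for retinoic acid receptors. A direct repeat of the 4 spellings with 5 bases between was present in 26 of 35116 RefSeq promoter windows (0.074%), and with a spacing of 1, 2 or 5 bases in 71 (0.202%). Since the RARB promoter is a textbook case of such an element, finding it there was no test. No repeat with these spacings was found in the other 10 windows of the 4 genes. The printed RARA sequence has 2 hexamers far apart and on opposite strands, and the other RARA windows have none. A single hexamer is common, with 33.8% of all windows holding at least 1. The peaks are on hg19 and the promoter windows on GRCh38.p14, so no peak was placed on these sequences, and no peak is assigned here to a promoter, exon or intron.

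At RARB, RARα was listed with and without RA, and MAML3 at the same place was listed only after RA. The RARα site spanned 25469516 to 25470111 on chromosome 3 and was the 1 site of the 4 windows present in all 4 RARα lists. Its score was 456.88 and 492.63 in the RA lists, against 590.24 and 206.50 in the UT lists. Scores rank peaks within a list only, and by rank the site was 50th of 1103 and 44th of 1064 after RA, against 24th of 1321 and 47th of 251 in untreated cells. It was thus in the upper part of every RARα list, at score percentiles of 95.6 and 96 after RA and 98.3 and 81.7 in untreated cells.

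The MAML3 site over it ran from 25469640 to 25470139. Its score was 155.28 and 233.55 in the RA lists, at percentiles of 54 and 72, and neither UT list had a peak there. The nearest peak to the RARα site was 29.8 kb away in the MAML3 UT 2 list and 574.1 kb away in the short UT 1 list. A MAML3 site in both RA lists and neither UT list is called gained here, and this was the only gained one of the 11 MAML3 sites in the windows. Over all 10251 MAML3 sites the share gained was 9.37%, and over the sites of both RA lists 19.4%, so the count of 1 is near the background. MAML3 UT 1 had 0 peaks in all 4 windows, so the absence from untreated cells rests on UT 2. By the lane tags in the list names, UT 2 shares a lane number with RA 1, which held the site. UT 1 shares one with RA 2, a pair in which every RA 2 site of the windows would show the same pattern. Leaving out RA 1 or RA 2 could not undo the call, since both held the site. With the 4 MAML3 lists cut to 2222 peaks each, the site was no longer gained. Its score in RA 1 was below the lowest one kept, 235.67.

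This combination of a RARα site in all 4 lists with a gained MAML3 site was found at 5 places in the whole series. Of the 143 RARα sites in all 4 lists, 73 (51%) lay on a MAML3 site also in all 4 lists, 21 (14.7%) had no MAML3 peak and 5 (3.5%) lay on a gained MAML3 site. The rest of the 143 lay on MAML3 sites with other patterns. Over all MAML3 sites, 16.8% were in all 4 lists and 9.37% were gained. A further 21.9% were in both RA lists and UT 2 but not in the short UT 1 list. Seen from MAML3, the same 5 were 0.52% of the 961 gained sites. The share of all MAML3 sites on such RARα sites was not computed. The RARB site had the highest mean RARα percentile of the 5, 92.9, and was 32nd among the 143, whose median was 78.9. Its MAML3 mean percentile was 63, which placed it 143rd of the 961 gained sites, whose median was 36.2. The other 4, named after their count was seen, were the hg19 positions 14:95873648-95874042, 17:2082872-2083322, 5:133889995-133890427 and 6:25122192-25122610.

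The 2 antibodies did not cover exactly the same bases at RARB. The MAML3 peaks overlapped the RARα site by 350 and 472 bp in the RA lists. Their centres were 145 and 104 bp to the right of the mean centre of the RARα peaks, while the RARα centres were at 1 and 5 bp after RA and at 52 and -58 bp in untreated cells. In the RARα RA 1 list the site was split into a peak from 25469537 to 25469896 and a lower one, score 124.88, from 25469899 to 25470036. The centre given for RA 1 is that of the span of both, and the lower peak by itself, centred at 25469967, lay to the right of the MAML3 centres at 25469930 and 25469889. Nearly all peak widths in the MAML3 RA lists are multiples of 50 bp, and the files give no summits, so these distances are no finer than that step.

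**Figure D1:**
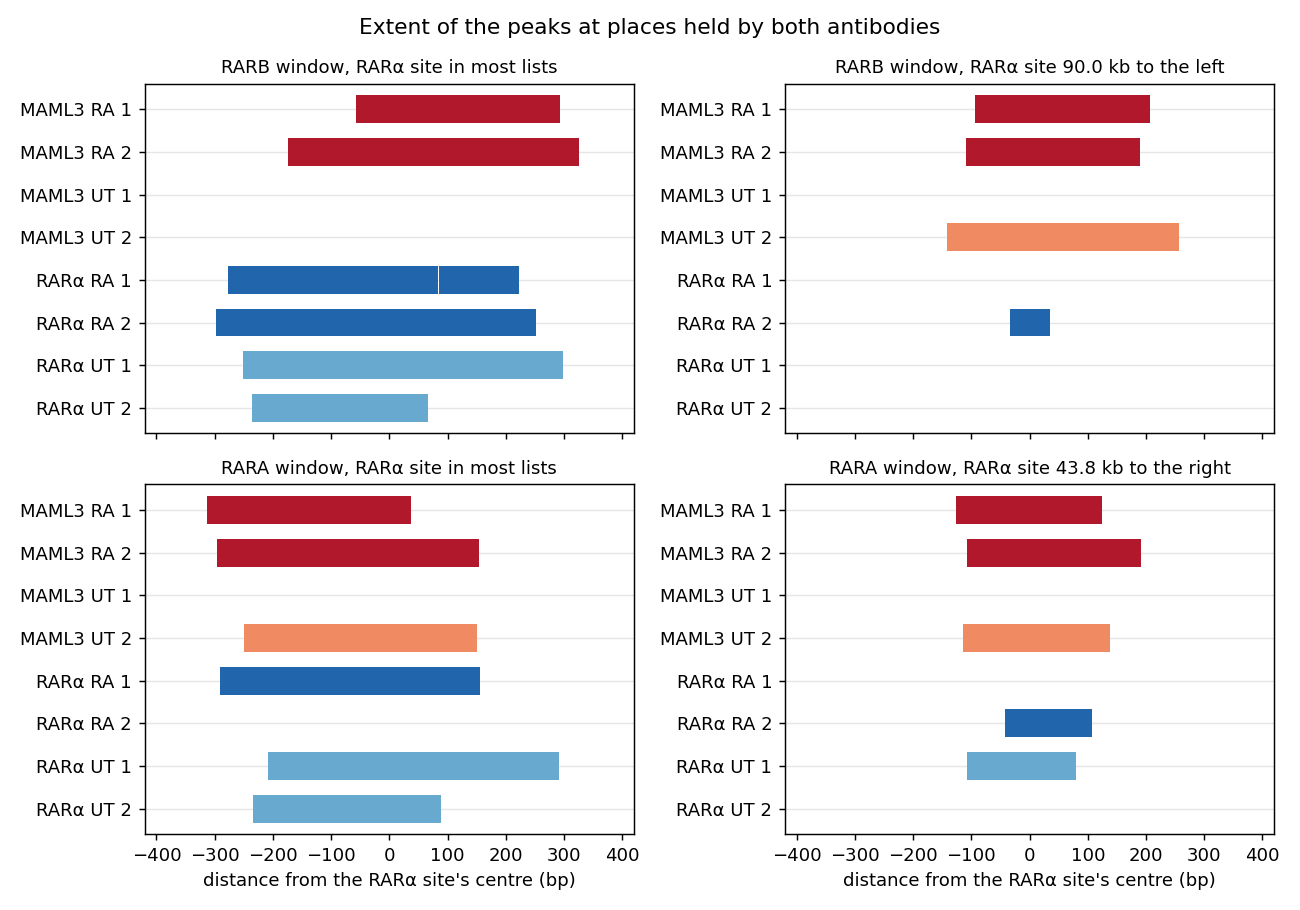
Horizontal bars show the extent of each listed peak, in bp from the centre of the RARα site, at the 4 places where both antibodies had peaks. Rows are the 8 libraries, with RA above UT for each antibody. At the RARB site in most lists the 2 MAML3 UT rows are empty while all 4 RARα rows are filled, and in the RARA panels the MAML3 UT 1 row is empty.

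Around this site the RARB window held 6 further MAML3 sites, which were present in 3 lists or in 1. The site at 25499890 to 25500389, with a centre 30.3 kb to the right of the RARα site, had scores of 210.19 and 165.84 in the RA lists and 385.10 in UT 2. No RARα list had a peak there, and the UT 2 peak was the highest MAML3 peak of that list in the window. The site at 25379657 to 25380056, 90.0 kb to the left by its RARα peak, scored 101.10 and 88.23 in the RA lists and 228.82 in UT 2. It carried a RARα peak of 68 bp in RA 2 alone, whose score of 71.23 was close to that list's minimum of 70.13. Both sites were therefore listed with and without RA, and the short UT 1 list held neither.

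The remaining 4 MAML3 sites of the RARB window were each in 1 RA list. RA 1 alone held the sites at 25322806 to 25323105, 25495506 to 25495705 and 25643156 to 25643455, at percentiles of 28.8, 8.19 and 29.8. RA 2 alone held 25212790 to 25213189, at percentile 60.4. None of the 4 was in the other RA library, so they differ between libraries of 1 group as well as between treatments. In all, MAML3 peaks in the RARB window numbered 6 and 4 after RA, against 0 and 2 in untreated cells.

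**Figure D2:**
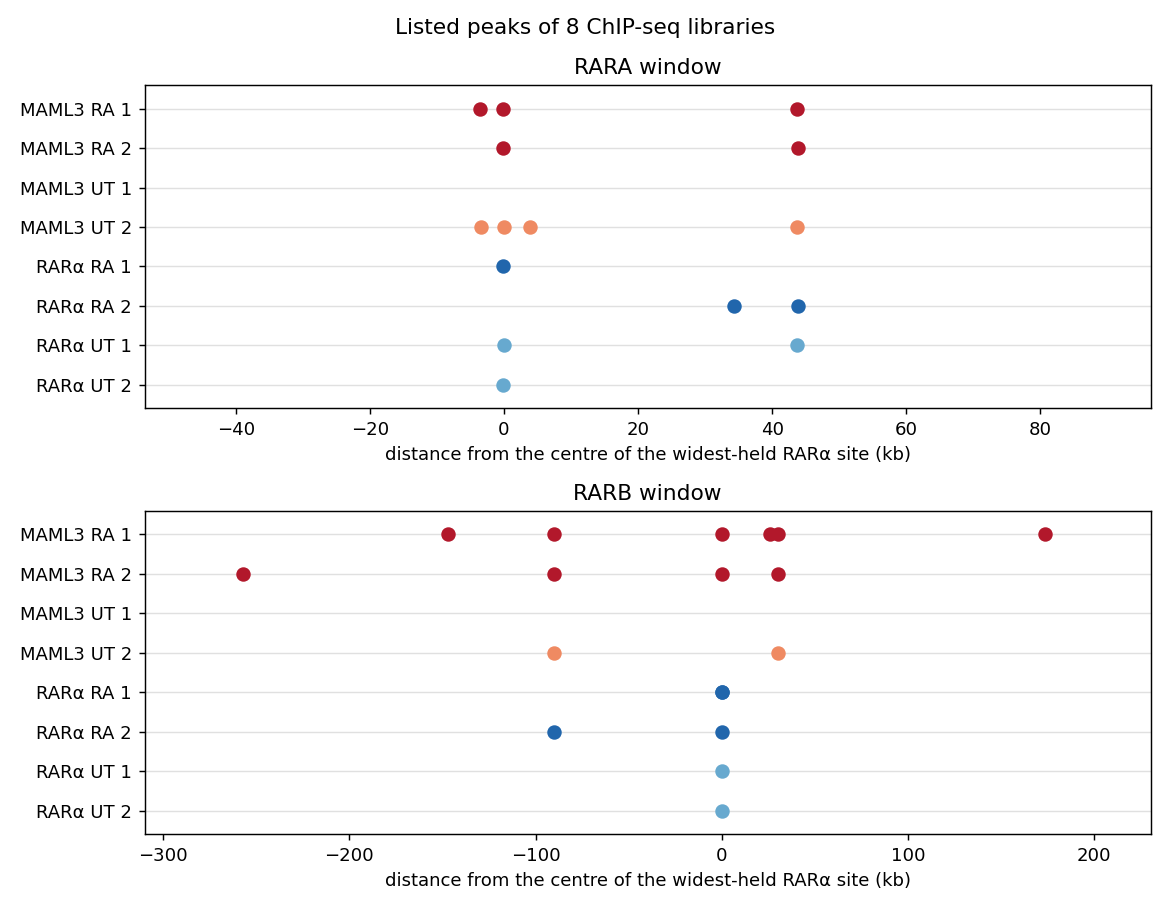
Dots mark the centres of listed peaks in the RARA window (upper panel) and the RARB window (lower panel), by library, against the distance in kb from the centre of the RARα site present in most lists. RARα peaks stack at distance 0 in all 4 lists at RARB and in 3 of 4 at RARA, and MAML3 peaks at distance 0 are missing in both UT lists at RARB and in UT 1 at RARA.

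Just outside the left limit of the RARB window, MAML3 peaks were listed 7.1 kb away in RA 1, 7.3 kb away in RA 2 and 7.6 kb away in UT 2, and RA 2 had a further one 5.1 kb away. Their scores were 273.05 in RA 1, 285.77 and 93.91 in RA 2 and 152.53 in UT 2. The peak 7.1 kb away in RA 1 and that 7.3 kb away in RA 2 scored higher than every peak of the same list inside the window. RefSeq gives RARB a length of 768612 bp, more than the 540 kb of the window, so the window cannot cover the whole gene as modelled there. To its right in RefSeq's gene order comes TOP2B, a DNA topoisomerase gene, and to its left THRB, a thyroid hormone receptor gene. Whether the window reaches into a neighbour was not determined, so a site counted in it need not lie in RARB.

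At RARA, the main site was shared by both antibodies in both treatments. The RARα site at 38463274 to 38463855 on chromosome 17 scored 236.34 in RA 1 and was not listed in RA 2, and it scored 430.93 and 151.85 in the UT lists. It ranked 187th of 1103 in RA 1, against 57th of 1321 and 71st of 251 in untreated cells. The MAML3 site there, 38463251 to 38463718, scored 192.28 and 300.36 in the RA lists, and in untreated cells it was absent from UT 1 and scored 456.40 in UT 2. Each antibody thus had peaks there with and without RA, and each lacked 1 library. The 3 MAML3 peaks overlapped the RARα site by 327 and 445 bp after RA and 400 bp in UT 2, and their centres were -106, -38 and -17 bp from the mean RARα centre.

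Another shared site at RARA ranked lower than the main one in every list that held both. The MAML3 site at 38507201 to 38507518 scored 179.73 and 84.59 in the RA lists and 169.31 in UT 2, at percentiles of 60.6, 16.5 and 53.6. The RARα site at 38507220 to 38507434 scored 100.79 in RA 2 and 111.22 in UT 1, at percentiles of 38.7 and 44.4. The other 2 RARα lists lacked it, so each treatment had 1 of 2 libraries. The 2 RARα lists that held it carry the same lane tag, and the part of the lane in this was not tested. MAML3 and RARα centres here were all within 32 bp of the mean RARα centre.

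Each of the 3 other RARA sites was held by 1 antibody. MAML3 was listed at 38459901 to 38460314 with a score of 119.64 in RA 1 and 279.50 in UT 2, and at 38467365 to 38467564 in UT 2 alone (162.88). These flank the main site at gaps of 2.9 and 3.6 kb, so that UT 2 had 3 MAML3 sites within this short stretch. RARα was listed at 38497803 to 38498030 in RA 2 alone (129.32), 9.2 kb from the nearest MAML3 peak of RA 1, RA 2 and UT 2. The window also holds or borders other genes, since RefSeq lists CDC6, a DNA replication licensing gene, and GJD3, a connexin gene, as the neighbours of RARA. The nearest peaks outside the window were of MAML3, 54.8 kb away in RA 2 and 57.0 kb away in UT 2.

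**Figure D3:**
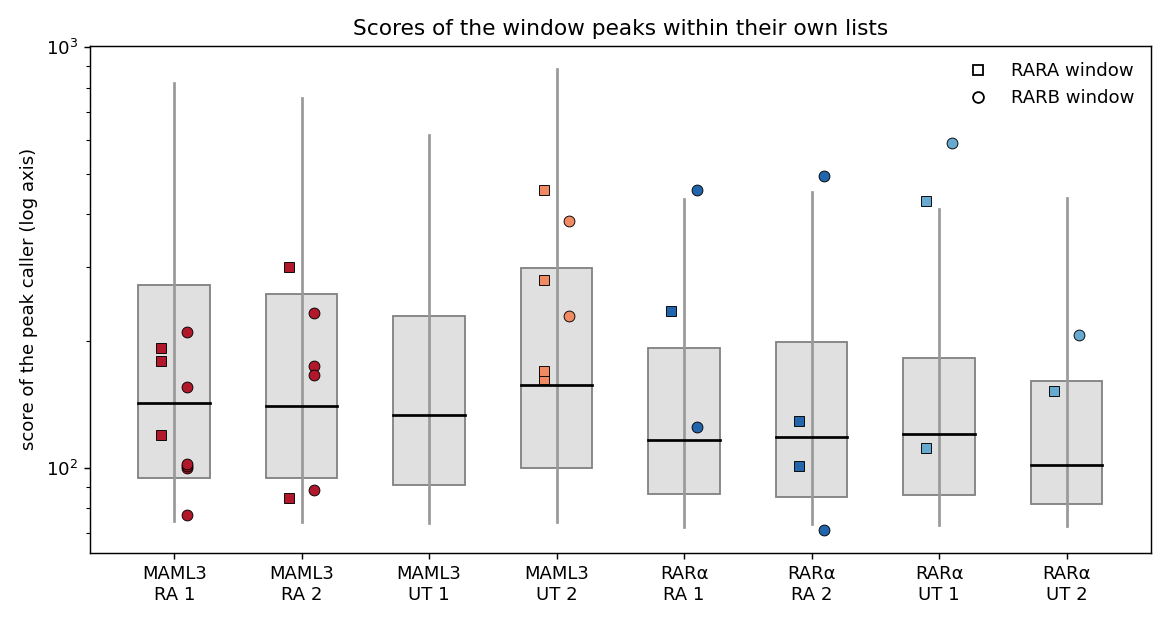
Score of each window peak (squares RARA, circles RARB, log axis) within its own library; grey boxes give the quartiles and median of the whole list and grey lines run from its 5th to its 95th percentile. The highest RARB circle lies above the 95th percentile in RARα RA 1, RA 2 and UT 1, as does the higher RARA square in UT 1 (430.93). The other RARB circle of RA 2 (71.23) lies below the 5th percentile, and no MAML3 point leaves its grey line.

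Neither the RARG nor the NRIP1 window had a peak in any of the 8 lists. These windows are short, 130 and 320 kb. The whole lists held at most 2.57 MAML3 and 0.45 RARα peaks per Mb, so a list with none there is near the background. The nearest peak to the RARG window was of RARα, on its right side, 93.5 kb away in both RA lists and 93.4 and 93.5 kb away in the UT lists. This RARα site had scores of 173.22 and 128.09 after RA and 191.00 and 94.27 in untreated cells, so it was present in all 4 lists. The nearest MAML3 peak to the RARG window was 690.9 kb away, in RA 1. To the NRIP1 window, the nearest MAML3 peak was 426.1 and 758.6 kb away after RA and 1926.6 and 1683.5 kb away in untreated cells. For RARα the distances were 6522.5 and 6522.6 kb after RA and 2023.1 and 31004.3 kb in untreated cells. Chromosome 21 had 62 and 60 MAML3 peaks after RA and 15 and 55 in untreated cells, and 13 and 15 RARα peaks after RA and 12 and 1 in untreated cells, so it was not left out of the lists.

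**Figure D4:**
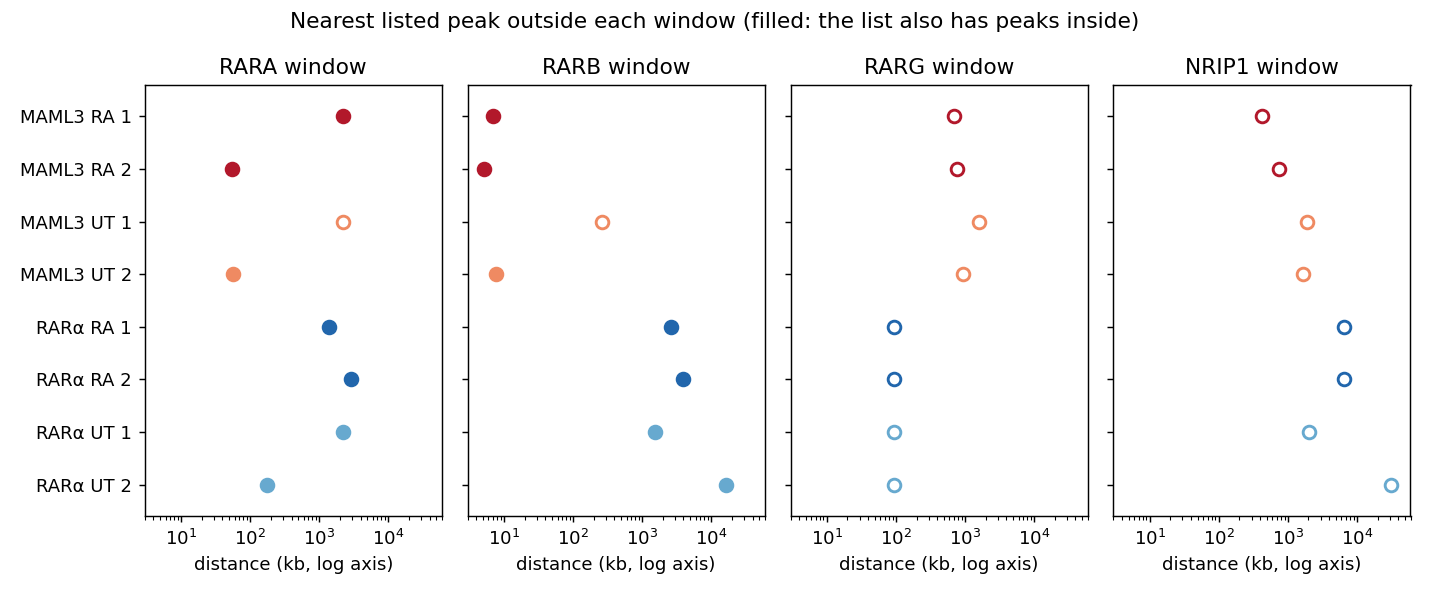
Distance in kb (log axis) from each window to the nearest listed peak outside it, by library; filled points mark lists that also had peaks inside. All points are open for RARG and NRIP1, and the 4 RARα points at RARG stand together between 93.4 and 93.5 kb.

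In the 4 windows together, MAML3 had 9 and 6 peaks after RA, against 0 and 6 in untreated cells, and RARα had 3 and 4 after RA, against 3 and 2 in untreated cells. The 2 untreated MAML3 lists thus differed by 6 peaks, and UT 2 had as many as RA 2. For RARα RA 1, the count of 3 includes both parts of the split RARB site. Per length, the windows held 7.89 and 5.26 MAML3 peaks per Mb after RA and 0 and 5.26 in untreated cells. The whole MAML3 lists held 2.57 and 2.12 per Mb after RA and 0.757 and 2.3 in untreated cells. For RARα the windows held 2.63 and 3.51 per Mb after RA and 2.63 and 1.75 in untreated cells, against 0.376 and 0.362, and 0.45 and 0.0855, over the whole lists. All of these peaks came from the RARA and RARB windows. The windows were chosen with earlier results of these data known, and the RARα values rest on few peaks per list. Enrichment at receptor genes was therefore not tested by these densities.

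Apart from the gained site at RARB, no site of the windows changed with RA by the rule of both libraries. With 0 peaks of MAML3 UT 1 in the windows, no MAML3 site there could be lost or be in all 4 lists, classes that held 0.683 and 16.8% of all MAML3 sites. None of the 5 RARα sites was gained or lost, where the shares were 5.42 and 0.472%, and 1 was in all 4 lists, where the share was 6.75%. The most frequent pattern among the window sites was MAML3 in both RA lists and UT 2 without UT 1, shown by 4 of 11 and by 21.9% of all MAML3 sites. Without UT 2, the only untreated MAML3 list with peaks in the windows, all 4 would count as gained and the total would be 5. Without RA 2 the gained count was 4, without RA 1 it was 2, and in both cases the added sites were those in 1 RA list only.

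Co-occupancy of the 2 antibodies in the windows was set against the series as a whole. Of the 5 RARα sites, 4 overlapped a MAML3 peak of at least 1 list, where 84.4% of all RARα sites did. Of the 11 MAML3 sites, 4 overlapped a RARα peak, where 17% of all MAML3 sites did. Over sites held by both libraries of a group, 1 of 1 RARα site lay on a MAML3 site after RA, namely that at RARB, against 0 of 2 in untreated cells. The shares over the whole series were 81.7% after RA and 56.1% in untreated cells. The untreated count of 0 depended on the short UT 1 list, and without it the RARA site counted and the value was 1 of 2.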

How the data were processed

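The authors deposited 1 peak list per library, with chromosome, start, end, peak name and a score per peak. BWA 0.5.9, MACS, bedtools and the hg19 build are named in the submitters' processing notes, without settings; no source used here gives the threshold, any use of input or the unit of the deposited score. The 2 input samples were not analysed here. Of the 10 samples in the labels, 8 have a list. Groups came from the labels.

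Peaks of the 4 lists of an antibody that overlapped by 1 bp were merged into sites over the whole table, and a site or peak belonged to a window when it touched it. Score percentiles are ranks within a list. The merging was tested on simulated data with a single peak per list and site and with sites far apart. Split peaks and close neighbouring sites were not part of that test. Every site held by both libraries of a group was to be named, and the few others are named too. The windows, members and sequences were chosen with earlier results of these data known. Planned values for other pathway genes and peak sequences were not run, since the annotation at hand is on GRCh38.p14. The motif search in RefSeq promoters was added later. Python 3.11.15 with matplotlib 3.10.9 was used.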

Additional observations from a re-analysis of the deposited data

How the results depend on the processing

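The gained MAML3 site at RARB kept its call under the stricter overlap, the 1 kb merge and the highest-scoring 50% of each list. None of these settings could undo it. Its RA 1 peak lies within its RA 2 peak, and the nearest other MAML3 sites were 25.4 and 89.6 kb away. Its percentiles in the RA lists were 54 and 72. With lists of equal length the site was no longer gained, and 0 MAML3 sites of the windows were gained. Widening the windows by 100 kb cannot change the class of a site inside them, and it kept every count within 1.5 times. MAML3 UT 1 has no peak in the windows, so leaving out UT 2 makes every MAML3 site of both RA lists gained. Leaving out each library in turn, the window counts ranged from 1 to 5 for gained MAML3 sites, from 0 to 1 for lost ones, from 0 to 2 for gained RARα sites and from 0 to 1 for lost ones. The count of RARα sites on MAML3 sites ranged from 1 to 3 after RA and from 0 to 1 in untreated cells. With lists of equal length it was 0 after RA. Over sites held by at least 1 replicate it was 4 of 5 after RA and 2 of 3 in untreated cells. In the highest-scoring 50% of each list, MAML3 RA 1 had 4 window peaks and RARα RA 2 had 2. With lists of equal length, MAML3 RA 1 had 0, MAML3 RA 2 had 2, MAML3 UT 2 had 3 and RARα RA 2 had 1. Without RARα RA 1, the library that holds the main RARA site after RA, that site counted as lost and 2 sites held by RARα RA 2 alone counted as gained. No paired analysis was possible because these counts come from no test, and the lane tags do not follow the replicate numbers. Depth is unknown, so precision could not be set.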

Other observations

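Peak names carry running numbers, and some numbers are not listed, so the lists were searched for gaps at the windows. Over whole MAML3 lists, 2.86 and 4.74% of the numbers were not listed after RA, and 10.7 and 4.05% in untreated cells. For RARα the shares were 15.5 and 15.2% after RA and 13.9 and 35.1% in untreated cells. Few numbers fall at any window, so a window with none missing is a weak observation. Between the peaks that flank the RARG window, 7 of 8 lists had no missing number, and at NRIP1 6 of 8 had none, so in those lists no numbered peak was left out there. The exceptions were MAML3 RA 1 at RARG, with 1 missing number over a stretch from 52859105 to 64106806, and at NRIP1 RARα RA 1 with 2 and RARα UT 2 with 1, over stretches that begin on chromosome 20.

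At RARB, 1 number of MAML3 RA 2 is missing between the peaks at 25470139 and 25499890, next to the gained site. MAML3 RA 1 lacks 1 between 25500305 and 25643156. Neither MAML3 UT list had a missing number from the flanking peak on the left of the RARB window to that on its right, so no numbered untreated MAML3 peak was left out at the gained site. Around RARA, 1 number is missing in MAML3 UT 2 between 38507464 and 38616965, and in RARα UT 1 between 38463855 and 38507220. RARα RA 1 lacks 1 between 27375861 and 38463274. The stretches of MAML3 UT 2 and RARα RA 1 reach outside the window, so their missing numbers need not be at RARA. RARα RA 2 had none missing at RARA, where it lacked the main site. RARα UT 2 lacks 1 on chromosome 3 between 8692926 and 25469577. Numbered peaks that are not listed were not analysed here.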
